A study of Mus musculus with 4 samples.

Results

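The data described here were 2 libraries of heart nuclei from mice that carry the Q150X allele of Vegfa, 1 from uninjured hearts and 1 from hearts 3 days after myocardial infarction. Q150X is a CRISPR/Cas9-made mouse allele that stands for a human VEGFA variant with a premature stop codon. The labels give the genotype as Q150X, their titles carry the tag "ho", and no age or sex was given. The uninjured library is called homeostasis in the labels and the injured library 3dpMI. Wild type (WT) hearts had 1 library at each of the same stages, and these were used only to set the same ratio beside the Q150X one. Nuclei were prepared from heart and libraries were made with the 10x Genomics Chromium 5' kit, version 2, and how many hearts went into a library was not given in the sources used here. Both Q150X libraries carry the allele, so a ratio between them is a response to infarction within the mutant and is not an effect of the mutation.

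Members were all nuclei with at least 500 UMIs (unique molecular identifiers, 1 for each captured RNA molecule), at least 300 genes and at most 10% mitochondrial UMIs. The rule kept 6478 of 6544 barcodes at homeostasis and 8120 of 8125 at 3dpMI, together 14598 of the 28128 nuclei that pass it in the whole series. Doublet calls then removed 336 and 802 nuclei, which left 6142 and 7318 nuclei with 8393926 and 26805000 UMIs. The median nucleus held 968 UMIs at homeostasis and 2666 at 3dpMI, and 78 barcodes occurred in both Q150X libraries. With 1 library a side there are no replicates. Every interval below is a 95% interval for counting error only, no p-value was computed, and what separates the libraries besides the infarct, such as dissociation, storage or animal, cannot be told apart from it. UMIs of a class were summed over its nuclei and scaled by the class total to CPM, the usual depth-normalised count. Ratios are 3dpMI over homeostasis, so a value below 1 means lower after infarction. A gene was called when its UMIs in the 2 libraries came to 50 or more and its ratio was at least 2 or at most 0.5.

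The adult heart holds cardiomyocytes, the contractile cells that burn mainly fatty acids, together with capillary endothelium, pericytes that wrap the capillaries, the endocardial layer that lines the chambers, fibroblasts and resident immune cells. After an infarct, neutrophils and monocytes enter, fibroblasts multiply and lay down matrix, surviving cardiomyocytes switch on fetal and stress genes, and capillaries sprout. Vegfa, made largely by cardiomyocytes in the adult heart, is the ligand that endothelial cells sense through the receptor Kdr (VEGFR2) and the decoy receptor Flt1.

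A quality gap ran alongside the injury contrast and touches many of the lower genes. Mitochondrial UMIs made up a median 0.794% of a nucleus at homeostasis and 0.126% at 3dpMI. An estimate of cardiomyocyte RNA in other nuclei, taken from 12 cardiomyocyte markers scaled to their level in cardiomyocytes, was 11.8% of the UMIs of vascular endothelial nuclei at homeostasis and 1.68% at 3dpMI. The same estimate was 7.97% and 2.13% in pericytes, 6.98% and 1.67% in endocardial nuclei, 6.1% and 1.8% in fibroblasts, and 9.11% and 1.41% in macrophages. In wild type the vascular endothelial estimate went the other way, from 4.17% to 7.14%. Classes were named from fixed marker lists, and most of the larger classes held more of their own markers than of any other list. The 12 pericyte markers summed to 10431 and 7724 CPM in pericytes, and the 16 vascular endothelial markers to 15049 and 15538 CPM in vascular endothelium. In endocardium the 7 endocardial markers summed to 12566 and 11198 CPM, with 1 of them at 0. The vascular endothelial markers stood at 12440 and 11933 CPM in the same nuclei. When nuclei were assigned 1 by 1 by a marker gate, 58.9% and 55.3% of endocardial nuclei kept that name. Small immune classes were mixed. The 11 B cell markers summed to 6619 and 2868 CPM in B cells. At 3dpMI the B nuclei also held 4406 CPM of vascular endothelial and 3422 of macrophage markers. At 3dpMI the neutrophil-like nuclei held 1265 CPM of neutrophil markers beside 4916 of macrophage and 5310 of fibroblast markers, and the 3 homeostasis nuclei of that name had all 8 neutrophil markers at 0. At 3dpMI the dendritic-like nuclei held 1080 CPM of their own and 2658 of macrophage markers, and the T or NK nuclei 2951 of their own and 3732 of fibroblast markers.

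**Figure D1:**
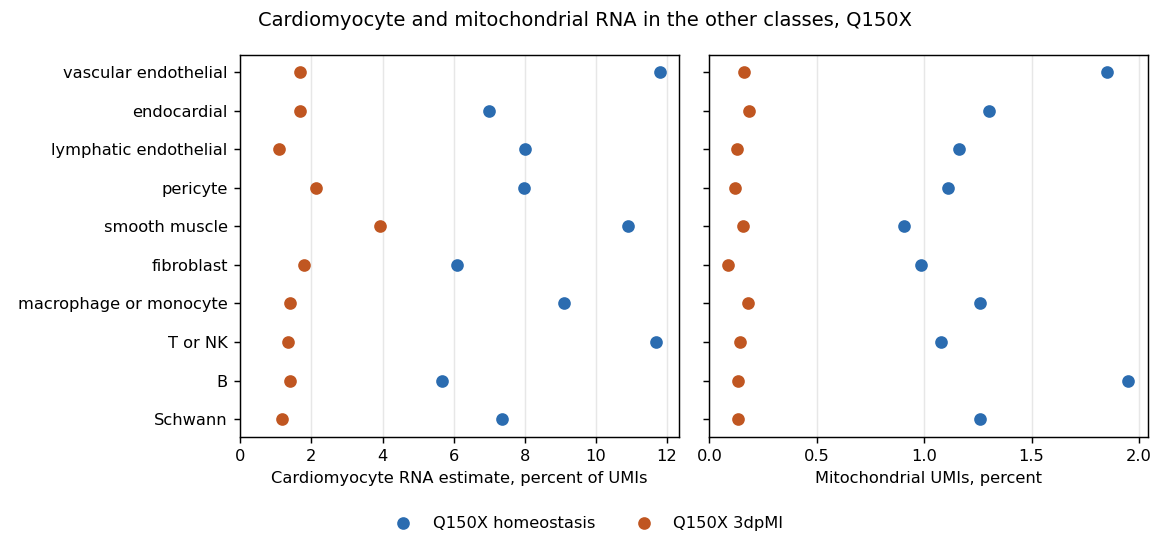
Estimated cardiomyocyte RNA (left, percent of UMIs) and mitochondrial UMIs (right, percent) in the non-cardiomyocyte classes of the Q150X libraries, 1 point per library and no error shown. In every class drawn, the homeostasis point lies to the right of the 3dpMI point on both axes, for example 11.8% against 1.68% cardiomyocyte RNA in vascular endothelium.

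The make-up of the nuclei changed from mostly fibroblasts and cardiomyocytes to a mix in which macrophages or monocytes and fibroblasts were the largest classes. Macrophages or monocytes were 425 nuclei (6.92%) at homeostasis and 2132 (29.1%) at 3dpMI, a share ratio of 4.21 (3.82 to 4.65). With the Q150X libraries clustered alone they were 28.8% at 3dpMI and fibroblasts 30.5%, so which class was larger depends on the clustering. Neutrophil-like nuclei went from 3 to 468, dendritic-like nuclei from 6 to 191, T or NK nuclei from 18 to 82 and B nuclei from 14 to 98. The share ratio was 3.82 (2.3 to 6.36) for T or NK cells, beside 2.03 (1.08 to 3.82) in wild type, and 5.88 (3.36 to 10.3) for B cells, beside 1.13 (0.636 to 2) in wild type. The neutrophil-like class was not stable. Finer clustering gave 135 nuclei of that name at 3dpMI, and clustering the Q150X libraries alone gave 113.

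The shares of cardiomyocytes, mural cells and endocardium were lower after infarction. Cardiomyocytes were 836 nuclei (13.6%) at homeostasis and 376 (5.14%) at 3dpMI, a ratio of 0.377 (0.336 to 0.424), and wild type gave 0.366. Fibroblasts made up 46.4% and then 25.4%, a ratio of 0.548 (0.522 to 0.575), but with nuclei assigned 1 by 1 by a marker gate the ratio was 0.977. Vascular endothelium was at 11.9% and then 19.8%, a ratio of 1.66 (1.53 to 1.8) beside 2.42 in wild type. The marker gate gave 1.0 for it and a minimum of 1000 UMIs gave 6.19. The size of the fibroblast and endothelial changes therefore depends on the setting, and the marker gate put both near level. Endocardial nuclei numbered 236 and 132 with a ratio of 0.469 (0.38 to 0.579), and the wild type ratio was 1.2 (0.946 to 1.53). Smooth muscle (47 and 17 nuclei), lymphatic endothelium (85 and 62) and Schwann cells (27 and 14) had ratios of 0.304 (0.175 to 0.528), 0.612 (0.442 to 0.848) and 0.435 (0.228 to 0.829).

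Pericytes were the class whose share moved in opposite directions in the 2 genotypes with both intervals clear of 1. There were 753 pericyte nuclei (12.3%) in the Q150X homeostasis library and 362 (4.95%) at 3dpMI, a ratio of 0.403 (0.358 to 0.455). In wild type the share went from 5.48% to 7.59%, a ratio of 1.39 (1.2 to 1.6). Among non-cardiomyocytes the Q150X ratio was 0.367 (0.326 to 0.414) and the wild type ratio 1 (0.867 to 1.16). The depth minimum mattered here. With at least 1000 UMIs a nucleus, 178 and 332 pericytes remained in Q150X with a ratio of 0.856 (0.717 to 1.02), against 2.83 (2.15 to 3.71) in wild type. The endocardial ratio at that minimum was 0.842 (0.627 to 1.13), against 2.83 in wild type. The difference between genotypes was not tested, since each rests on 1 library per stage, and a lower share of a class cannot be told apart from a higher share of the others.

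**Figure D2:**
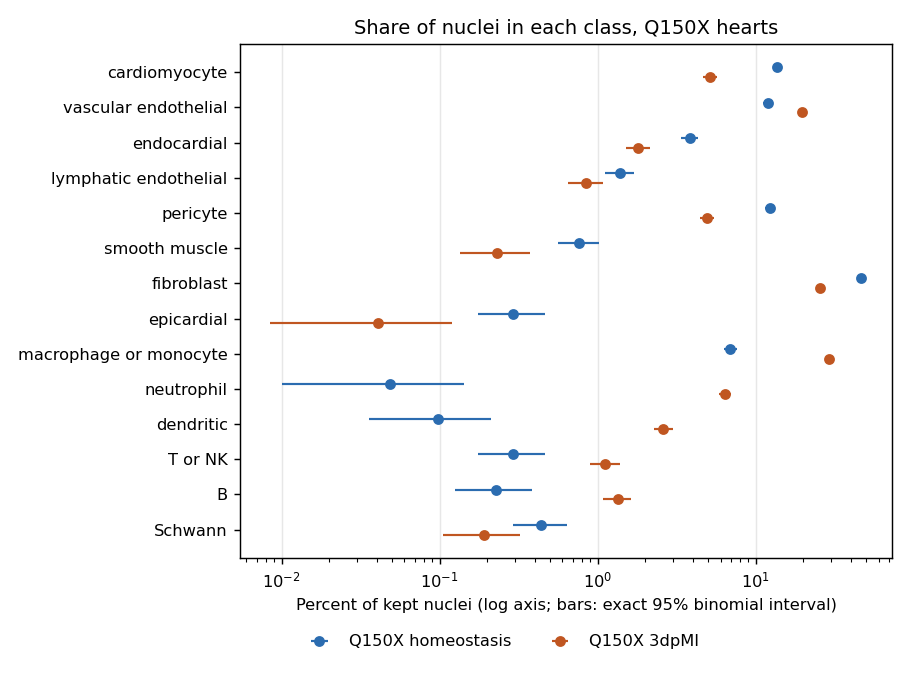
Percent of kept nuclei in each class (log axis) in the Q150X libraries at homeostasis and 3dpMI, with bars for the exact 95% binomial interval. Macrophages or monocytes moved from 6.92% to 29.1% and pericytes from 12.3% to 4.95%.

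Over all Q150X nuclei there were more myeloid, matrix and cell cycle transcripts after infarction and fewer transcripts of cardiomyocyte metabolism. Of 15364 genes with enough UMIs, 25.8% were at least 2-fold higher at 3dpMI and 8.75% at least 2-fold lower, and the 17696 genes that pass the list minimum of 20 UMIs had a median log2 ratio of 0.40. The all-gene medians given below for each class also refer to that minimum of 20 UMIs. At that minimum 68.1% of genes were higher over all nuclei, 62.6% in cardiomyocytes, 65.6% in vascular endothelium and 55.8% in endocardium. Lymphatic endothelium had 56.7%, pericytes 65.5%, fibroblasts 65.4% and macrophages 60.7%. List counts use 20 UMIs too, while the 2-fold shares of each class use 50. At 20 UMIs, 11.5% were at least 2-fold higher in endocardium, 16.2% in pericytes and 15.7% in lymphatic endothelium. With the UMI totals of the classes held at the homeostasis mix, 17.5% of the 15364 genes were at least 2-fold higher and 5.17% at least 2-fold lower. Across the 14698 genes measured in both genotypes the log2 ratio correlated with that of wild type at r = 0.866, and 85.6% had the same sign. Genes are not independent replicates and the injured libraries of both genotypes are the deeper ones, so this and the r of each class below describe the 2 pairs of libraries.

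The leading higher genes over all nuclei were products of infiltrating myeloid cells and of activated fibroblasts. Spp1 (osteopontin, secreted by repair macrophages) had 0 UMIs at homeostasis and 7241 at 3dpMI, or 270 CPM, which is at least 756-fold higher against a floor of 3 counts. Gpnmb, a glycoprotein of lipid-laden macrophages, went from 1.91 to 174 CPM, a ratio of 91.1 (56.1 to 160). Cd300lf, an inhibitory myeloid receptor, had 2 and 2175 UMIs, with a ratio of 341 (94.2 to 2814). Slfn4, a schlafen gene of the myeloid lineage, had 3 and 2426 UMIs, with a ratio of 253 (86.5 to 1229), and Sirpb1c, a signal-regulatory receptor gene, had 1 and 1866, with a ratio of 584 (105 to 23092). Cthrc1, which marks matrix-producing fibroblasts, had 0 and 1501 UMIs and P4ha3, a collagen prolyl hydroxylase subunit, 0 and 1046, at least 157-fold and 109-fold higher. The immediate early gene Fosb had 1 and 1075 UMIs, a ratio of 337 (60.3 to 13309). All of these genes were at 0 to 16 UMIs in the uninjured library.

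The lowest genes over all nuclei were led by cardiomyocyte and basement membrane genes. Ppargc1a, the coactivator that drives mitochondrial gene programmes, was at 1284 CPM at homeostasis and 60.4 CPM at 3dpMI, a ratio of 0.047 (0.0446 to 0.0495) beside 0.166 in wild type. With the class mix held at homeostasis its log2 ratio was still -2.89. Mylk4, a myosin light chain kinase of heart muscle, went from 139 to 7.54 CPM, a ratio of 0.0541, and in wild type the ratio was 0.405. Col4a3 and Col4a4, collagen IV chains that pair in one trimer, went from 166 to 8.43 and from 205 to 15.9 CPM. Lncbate10, a long noncoding RNA named for brown fat, had 172 UMIs and then 1, a ratio of 0.00182 (4.58e-05 to 0.0103). The mesothelial mucin gene Muc16 had 100 and 5 UMIs, and the epicardial class, which is mesothelial, held 18 and 3 nuclei.

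Gene lists over all nuclei separated in the same way, beside the all-gene median of 0.40. All 18 measured genes of recruited monocytes and repair macrophages were higher, 16 of them at least 2-fold, with a median log2 ratio of 5.77. All 20 proliferation genes and 18 of 20 chemokines and cytokines were at least 2-fold higher, with medians of 4.17 and 3.89, and all 17 interferon response genes were higher with a median of 1.26. Of 16 activated fibroblast genes, 14 were at least 2-fold higher, with a median of 3.62. Of 15 measured genes of cell death and p53 targets, 9 were at least 2-fold higher and none at least 2-fold lower, among them Cdkn1a, Mdm2, Bax and Gdf15, with a median of 1.31. None of the 25 fatty acid oxidation genes was higher, 12 were at least 2-fold lower and the median was -0.98, where wild type had -0.11. The 22 nuclear-coded oxidative phosphorylation genes had no higher member and a median of -0.59, where wild type had 0.42. Cardiomyocyte nuclei supplied 35.6% of UMIs at homeostasis and 12.1% at 3dpMI in Q150X, and 56.3% and 30.1% in wild type. The part of that drop in either list was not tested.

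Cardiomyocytes at 3dpMI carried more stress and fetal transcripts and less of Ppargc1a and Ppara, which regulate fatty acid use. Of 8280 genes measured in them, 13.7% were at least 2-fold higher and 4.96% at least 2-fold lower, and the 11062 genes with 20 UMIs or more had a median log2 ratio of 0.21. The r against the wild type response was 0.758. Of 16 stress and fetal genes, all were higher and 14 at least 2-fold, with a median log2 ratio of 2.20 (1.80 in wild type). Most of the homeostasis nuclei lay in clusters 6 (536 nuclei) and 7 (278), and most of the 3dpMI nuclei in cluster 13 (263 of 376). The median UMI count was 3025 and then 7780, and the mitochondrial share 0.582% and then 0.0376%.

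The natriuretic peptide genes are the classical markers of a strained ventricle. Nppa (atrial natriuretic peptide) had 6 UMIs at homeostasis and 483 at 3dpMI, 2.01 and 149 CPM, a ratio of 74.1 (33.8 to 203) beside 22.7 in wild type. Nppb, the B-type peptide, went from 28.1 to 240 CPM, a ratio of 8.54 (6.81 to 10.8) beside 10.4 in wild type. Ankrd1, a stretch-responsive protein of the sarcomere and nucleus, went from 69.2 to 1119 CPM, a ratio of 16.2 (14.1 to 18.7) beside 12.7. The levels of these 3 genes did not overlap between the stages within counting error. The share of all cardiomyocyte genes for which that holds is not given here, so it does not set these 3 apart. When every nucleus was thinned to 500 UMIs, Ankrd1 was seen in 3.11% and then 32.7% of cardiomyocytes, while vascular endothelial nuclei, which should lack it, stood at 1.64% and 2.69%.

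The 300 bases around the start sites of these 3 genes are shown because Nppa had the largest ratio of the list and Ankrd1 and Nppb are its other best known members, and Nppa and Nppb lie near each other on chromosome 4. They are RefSeq sequences of GRCm38.p6, 250 bases before to 50 after the start, 5' to 3' on the gene's strand. Matches to CATTCC (the core read by TEAD factors) or AGATAA (1 form of the core read by GATA factors) on either strand are in capitals, and none overlap.
Nppa: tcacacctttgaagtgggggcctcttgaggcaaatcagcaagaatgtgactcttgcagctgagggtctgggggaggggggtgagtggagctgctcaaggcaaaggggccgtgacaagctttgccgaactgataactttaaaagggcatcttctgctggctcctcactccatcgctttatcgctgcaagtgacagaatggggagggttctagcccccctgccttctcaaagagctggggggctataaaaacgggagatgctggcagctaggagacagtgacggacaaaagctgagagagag
Nppb: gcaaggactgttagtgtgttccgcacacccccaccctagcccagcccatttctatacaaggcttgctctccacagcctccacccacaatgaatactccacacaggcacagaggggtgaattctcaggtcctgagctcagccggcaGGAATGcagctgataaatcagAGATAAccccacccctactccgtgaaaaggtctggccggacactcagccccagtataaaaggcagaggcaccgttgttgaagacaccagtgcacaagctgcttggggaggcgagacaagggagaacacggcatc
Ankrd1: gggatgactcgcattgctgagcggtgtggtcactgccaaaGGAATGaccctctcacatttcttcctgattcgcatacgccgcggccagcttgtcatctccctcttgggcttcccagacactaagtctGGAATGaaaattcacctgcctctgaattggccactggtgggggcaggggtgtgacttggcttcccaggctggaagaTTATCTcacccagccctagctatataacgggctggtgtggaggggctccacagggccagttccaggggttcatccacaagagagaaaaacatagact
Nppa lies at chr4:148000472-148000771 on the plus strand, Nppb at chr4:147985650-147985949 on the plus strand and Ankrd1 at chr19:36119795-36120094 on the minus strand. Of the 13 stress genes with an entry in the promoter table, 7 held CATTCC, namely Myh7, Nppb, Ankrd1, Ankrd23, Flnc, Hspb1 and Acta1, against 16.6% of 27018 genes with an entry. AGATAA occurred in 3 of the 13, against 12.7%, and TGANTCA (an AP-1 core, searched the same way) in 1, Xirp2, against 8.98%. The Nppa window held none of the 3 motifs as spelled here. Sites that differ from these letters, such as the tgataa in the Nppa window, were not searched. A match is a description of letters and no binding was measured.

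The other stress genes were structural and protective proteins. Xirp2, an actin-binding protein of the intercalated disc, went from 576 to 4255 CPM, a ratio of 7.39 (7.03 to 7.77) beside 2.41 in wild type. Flnc (filamin C, an actin cross-linker) had a ratio of 4.97 (4.35 to 5.7), the small heat shock gene Hspb1 5.97 (4.33 to 8.39) and the intermediate filament gene Des 3.63 (3.26 to 4.05). Ccn2, a matricellular growth factor, went from 6.02 to 186 CPM, a ratio of 31 (19.4 to 52.6). The smallest ratios of the list were those of Myh7, the slow myosin heavy chain, at 1.61 (1.42 to 1.82), and Csrp3, a sensor protein of the Z disc, at 1.71. Among genes outside the list, Sprr1a, a small proline-rich protein, had 0 and 385 UMIs and Thbs4 (thrombospondin 4) 0 and 152, at least 118-fold and 46.7-fold higher. Nrxn3, a neurexin adhesion gene, went from 6.35 to 232 CPM, a ratio of 36.6 (23.2 to 61.1) beside 48.1 in wild type. Lrp8, a lipoprotein receptor gene, had 0 and 139 UMIs and was at least 42.7-fold higher.

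The regulators Ppargc1a and Ppara were lower, and most fatty acid oxidation genes changed less than 2-fold. Ppargc1a went from 3450 to 483 CPM, a ratio of 0.14 (0.133 to 0.148) beside 0.307 in wild type. Ppara, the nuclear receptor for fatty acids, went from 624 to 218 CPM, a ratio of 0.349 (0.32 to 0.381) beside 0.466. Ucp3, a mitochondrial carrier, and Slc27a1, a fatty acid transporter, had ratios of 0.38 (0.27 to 0.529) and 0.47 (0.415 to 0.531), and these 4 were the only list members at least 2-fold lower. Cpt1b, which carries acyl groups into mitochondria, had 0.891 (0.784 to 1.01), Acadl 1.07 and Esrra, also a regulator, 1.09 (0.925 to 1.29). Over the 25 genes 3 were higher, and the median log2 ratio was -0.39, against 0.26 in wild type. Mylk4 went from 367 to 56.9 CPM, a ratio of 0.155 (0.132 to 0.181), where wild type had 0.751. Ugp2, which makes UDP-glucose for glycogen, went from 763 to 130 CPM.

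**Figure D3:**
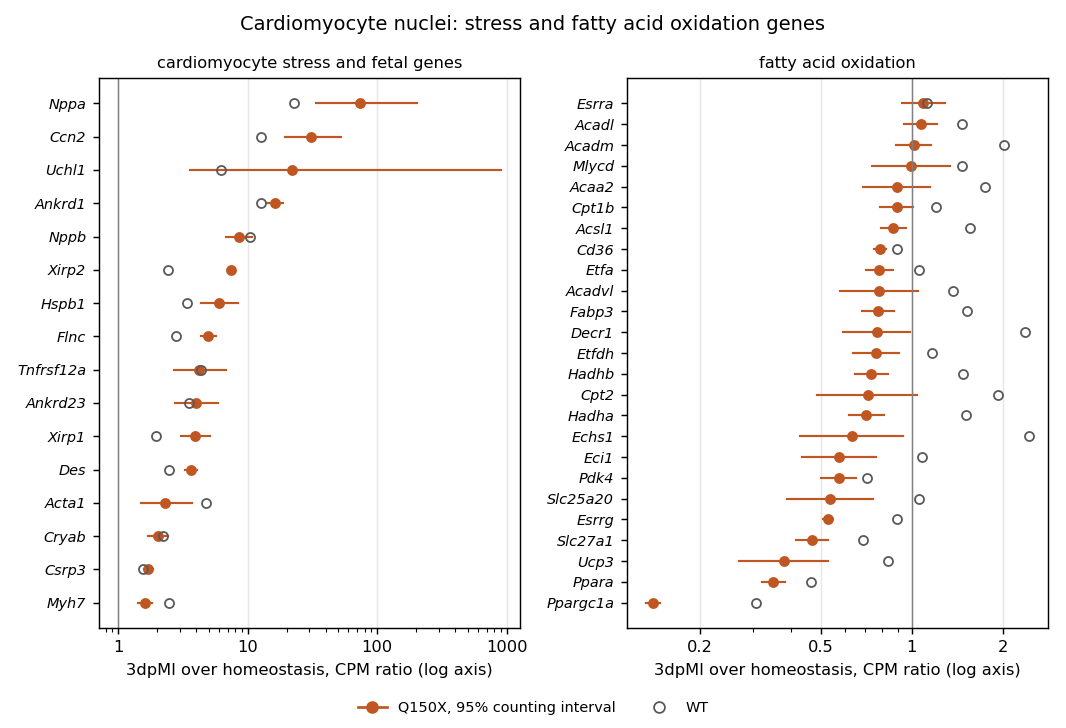
Ratio of CPM at 3dpMI over homeostasis (log axes) for each measured stress and fetal gene (left) and fatty acid oxidation gene (right) in cardiomyocyte nuclei, filled points for Q150X with 95% counting intervals and open points for wild type. All 16 stress genes lie right of 1, and Ppargc1a at 0.14 lies furthest left on the right panel.

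Calcium handling, sarcomere and energy genes moved less as groups. Of 17 calcium handling and ion channel genes, 7 were higher, and the median was -0.06 (0.19 in wild type). Atp2a2 (SERCA2, the pump that refills the calcium store) went from 3843 to 1840 CPM, a ratio of 0.479 (0.464 to 0.494), whereas wild type had 1.15 (1.12 to 1.17). Kcnq1, a repolarising potassium channel, went from 265 to 702 CPM, a ratio of 2.65, and Ryr2, the calcium release channel, stood at 19057 and 19054 CPM. Of 20 sarcomere genes 12 were higher with a median of 0.24, near the 62.6% of all cardiomyocyte genes that were higher. Tpm1 (tropomyosin) and Tnnt2 (troponin T) had ratios of 2.57 and 2.13, and Myl3 (a ventricular light chain) one of 0.56. The 22 oxidative phosphorylation genes had a median of -0.22, against 0.67 in wild type, and Cox8b, a subunit of cytochrome oxidase, was lowest at 0.461. The mitochondrial share of cardiomyocyte nuclei, given above, was also lower at 3dpMI, and its part in these values was not tested.

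Hypoxia and glycolysis genes and immediate early genes were higher as groups. Of 20 hypoxia and glycolysis genes 15 were higher, 9 at least 2-fold, with a median of 0.76, where 62.6% of all cardiomyocyte genes were higher. Slc2a1, the GLUT1 glucose transporter, had 9 and 105 UMIs, a ratio of 10.7 (5.45 to 24.2), and Hmox1, the haem-degrading enzyme, 1 and 49 UMIs, a ratio of 45.1 (7.73 to 1819). Bnip3, a mitophagy receptor, went the other way from 220 to 96.4 CPM, a ratio of 0.437, and was the only member at least 2-fold lower. Of 13 immediate early genes 12 were higher, 9 at least 2-fold, with a median of 1.93. Myc and Zfp36, an mRNA-decay factor, had ratios of 11.8 and 6.14, and Jun 1.16 (0.893 to 1.5). Proliferation genes summed to 26.4 and 54.5 CPM in cardiomyocytes. After thinning, 1.67% (0.918 to 2.79) and 2.66% (1.28 to 4.84) of cardiomyocytes had any of them, intervals that overlap.

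Within the single cardiomyocyte cluster that held at least 50 nuclei of both libraries (cluster 6), the stress list was higher by less. Of 12 measured genes, 9 were higher and 3 at least 2-fold, with a median of 0.55 where the all-gene median was 0.11. Fatty acid oxidation had a median of -0.00 there, with 12 of 25 genes higher. The values for all cardiomyocytes therefore rest on different clusters at the 2 stages.

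Vascular endothelial nuclei after infarction showed more sprouting, matrix, adhesion and cell cycle transcripts and fewer capillary transcripts. Of 9078 genes, 19.4% were at least 2-fold higher and 4.49% at least 2-fold lower, and the 11617 genes with 20 UMIs or more had a median of 0.27. The r against wild type was 0.596. With genes admitted by mean CPM in place of UMI counts, which treats both depths alike, 9.59% were higher and 5.67% lower. Clusters 0 and 8 held 366 and 312 of the 731 homeostasis nuclei, and cluster 9 held 617 of the 1448 at 3dpMI and 36 at homeostasis.

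Sprouting genes mark endothelial tip cells, which lead a new vessel. Of 14 measured, 13 were higher and 10 at least 2-fold, with a median of 1.67 (1.37 in wild type). Angpt2, which loosens vessel walls, had 12 and 248 UMIs, a ratio of 3.15 (1.77 to 6.18). Apln (apelin, a tip cell peptide) had 3 and 113 UMIs, a ratio of 5.74 (1.91 to 28.3). Kit, a receptor tyrosine kinase, went from 33.8 to 208 CPM, a ratio of 6.14 (3.9 to 10.2), and the guidance receptor Unc5b from 51.6 to 165 CPM, a ratio of 3.21 (2.21 to 4.83). In thinned nuclei Kit was seen in 1.09% and then 5.94% of vascular endothelial nuclei, and in 0.0351% and 0.537% of fibroblasts.

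Genes of mature capillaries went the other way. Of 14 measured, 1 was higher and 6 were at least 2-fold lower, with a median of -0.78 (-0.91 in wild type). Cd36, the endothelial fatty acid transporter, went from 2135 to 1034 CPM, a ratio of 0.485 (0.454 to 0.517). Car4, a surface carbonic anhydrase, had 0.408 (0.285 to 0.593), Timp4, a protease inhibitor, 0.212 and Slc28a2, a nucleoside transporter, 0.295. Aqp1, the water channel of capillary endothelium, had 0.477 (0.399 to 0.573), where wild type had 1.11. Gpihbp1, which anchors lipoprotein lipase, had 1.03.

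The VEGF ligands and receptors had a median of -0.60 in Q150X vascular endothelium and 0.46 in wild type, with 2 of 10 members higher. Kdr was at 376 and 375 CPM, a ratio of 0.998 (0.863 to 1.16), and Flt1 at 2250 and 1666 CPM, a ratio of 0.74 (0.697 to 0.787). The co-receptor Nrp1 went from 1624 to 855 CPM, a ratio of 0.527, and Vegfc, the lymphatic ligand, from 602 to 354 CPM, a ratio of 0.588 (0.522 to 0.665) where wild type had 1.73. The 2 members that were higher were Pgf (placental growth factor, a Flt1 ligand), with 3 and 121 UMIs and a ratio of 6.15 (2.05 to 30.2), and Flt4 (VEGFR3), with a ratio of 1.77. Vegfa itself read 58.7 and 25 CPM, a ratio of 0.425 (0.283 to 0.653). After subtraction of the estimated cardiomyocyte RNA its log2 ratio was 1.30, so the direction of Vegfa in endothelium rests on that estimate.

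Other endothelial lists were mostly higher. All 20 proliferation genes were higher, 19 at least 2-fold, with a median of 2.45 (2.50 in wild type). Under alternative settings that median ranged from 0.6 to 2.54. In thinned nuclei 3.97% and then 26.9% had a proliferation gene. At 3dpMI 28.8% of neutrophil-like nuclei had one, so the endothelial shares were not read as dividing cells. Top2a, a DNA topoisomerase of dividing cells, went from 10.7 to 117 CPM, a ratio of 10.9 (4.99 to 30). Of 11 adhesion and venous genes 10 were higher, among them the selectins Selp (0 and 389 UMIs, at least 19.8-fold) and Sele (0 and 164, at least 8.33-fold), while Icam1 had 0.777 (0.526 to 1.18). Of 31 matrix genes 29 were higher and 20 at least 2-fold, with a median of 1.86, and the 12 fibroblast markers in these nuclei summed to 776 and 1761 CPM, whose part was not tested. Col18a1, the collagen that carries endostatin, went from 16 to 341 CPM, a ratio of 21.3 (11.2 to 46.7), and Tll1, a procollagen protease, from 12.5 to 201 CPM, a ratio of 16.1 (7.79 to 40.3). Col4a1 and Col4a2, the basement membrane chains of vessels, had ratios of 2.08 (1.9 to 2.28) and 1.6. Of 12 arterial and Notch genes 10 were higher, with a median of 0.63, and the tip cell ligand Dll4 had 1.74. Interferon response genes had a median of -0.02.

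The lowest genes of the vascular endothelial nuclei were transcripts of heart muscle. Mb (myoglobin) went from 272 to 32.3 CPM, a ratio of 0.119 (0.0925 to 0.152) beside 2.47 in wild type. Myl3 had 0.13, Tnni3 (troponin I) 0.127 and Ckm (muscle creatine kinase) 0.103, and 19 of 20 sarcomere genes were at least 2-fold lower with a median of -2.96 (0.62 in wild type). The 12 cardiomyocyte markers together stood at 8440 and 1032 CPM in these nuclei, with none at 0. The same direction of sarcomere genes was seen in pericytes (median -2.45) and endocardium (median -1.85). Its relation to free RNA was not tested beyond those values.

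Within single clusters the lists behaved differently. In cluster 0 the capillary list had a median of -0.25, the sprouting list 0.19 and the VEGF list -0.10, all nearer to 0 than in the class, whereas the matrix list had 1.87, the arterial and Notch list 0.73 and the 4 measured proliferation genes 3.06. In cluster 8 the capillary list had -0.55, the sprouting list 1.62, and 15 of 19 proliferation genes were at least 2-fold higher with a median of 2.05.

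Endocardial nuclei, all in cluster 14, showed more matrix and mesenchymal transcripts. Of 2368 genes, 6.21% were at least 2-fold higher and 4.52% at least 2-fold lower, and the 4943 genes with 20 UMIs or more had a median of 0.09. The r against wild type was 0.592. The 236 and 132 nuclei had medians of 787.5 and 2325 UMIs. Of 24 matrix genes 20 were higher and 15 at least 2-fold, with a median of 1.55 (0.45 in wild type). Of 9 genes of endothelial to mesenchymal transition 8 were higher and 6 at least 2-fold, with a median of 2.17 (1.84 in wild type).

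Single endocardial genes had wide intervals. Fn1 (fibronectin) went from 40.3 to 515 CPM, a ratio of 12.8 (6.58 to 28.4), and Col1a1 (collagen I) from 31.4 to 510 CPM, a ratio of 16.2 (7.72 to 41). Cdh2 (N-cadherin) had 4.5 (2.45 to 9.05), and the transcription factors Zeb1 and Zeb2 had 0.898 and 1.03. Activated fibroblast genes summed to 211 and 1383 CPM in endocardium and to 475 and 10137 CPM in fibroblasts, and 12 fibroblast markers to 847 and 1813 CPM in endocardium, and the part of fibroblast RNA in these values was not tested. Igfbp5, a binding protein for insulin-like growth factors, went from 305 to 2773 CPM, a ratio of 9.1 (7.11 to 11.8) beside 12.6 in wild type. H19, an imprinted noncoding RNA, had a ratio of 5.66 (3.11 to 11.3).

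Of 8 VEGF ligands and receptors measured in endocardium, 7 were higher, with a median of 0.72 (0.81 in wild type). Kdr had 5 and 23 UMIs, a ratio of 2.92 (1.09 to 9.84), the co-receptor Nrp2 1.65 (1.18 to 2.36) and Vegfc 1.72 (1.13 to 2.69). Vegfd was the lower one, with 25 and 9 UMIs and a ratio of 0.229 (0.0939 to 0.506). Col4a3 and Col4a4 went from 923 to 145 and from 995 to 182 CPM, ratios of 0.157 and 0.183. Npr3, the natriuretic clearance receptor that marks endocardium, was at 2362 and 1449 CPM, a ratio of 0.613 (0.542 to 0.694), and Nrg1 (neuregulin, an endocardial growth factor) at 2627 and 3507 CPM, a ratio of 1.33 (1.21 to 1.48), where wild type had 1.19 and 0.677.

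Lymphatic endothelial nuclei (cluster 18, 85 and 62 nuclei) held their 7 markers at a summed 8024 and 6501 CPM, while single markers moved in different directions. Of 1587 genes, 10.3% were at least 2-fold higher and 6.68% at least 2-fold lower, and the 3619 genes with 20 UMIs or more had a median of 0.15. The r against wild type was 0.574. By mean CPM the shares were 5.81% and 9.53%, so the balance of higher and lower calls depends on the filter. Prox1, the lymphatic master regulator, went from 1043 to 1458 CPM, a ratio of 1.4 (1.11 to 1.78), Flt4 stood at 1192 and 1210 CPM, and Mmrn1 (multimerin) went from 1754 to 702 CPM, a ratio of 0.401 (0.321 to 0.5). Nrp2 had 2 (1.58 to 2.56). Fn1 had 3 and 257 UMIs, a ratio of 28.5 (9.65 to 139), and of 16 matrix genes 13 were higher and 8 at least 2-fold, with a median of 1.17 (0.44 in wild type). The wild type class held 35729 UMIs at homeostasis against 87235 in Q150X, so a gene at 0 there gives a smaller bound. The 12 fibroblast markers summed to 665 and 1046 CPM in these nuclei, with 4 at 0 in each library, and their part was not tested. Pkhd1l1, a large receptor-like gene and also 1 of the 7 markers, went from 573 to 42 CPM, a ratio of 0.0733 (0.0344 to 0.143). Fam102b went from 642 to 42 CPM, a ratio of 0.0654 (0.0309 to 0.126).

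Pericyte nuclei formed cluster 4 in both libraries and had more cell cycle, matrix and hypoxia transcripts and less of several identity genes. Of 5479 genes, 10.7% were at least 2-fold higher and 3.49% at least 2-fold lower, and the 8863 genes with 20 UMIs or more had a median of 0.25. The r against wild type was 0.573. The 753 and 362 nuclei had medians of 769 and 2377 UMIs. Finer clustering split them largely by stage, with 640 homeostasis and 64 3dpMI nuclei in its cluster 8, and 36 and 290 in its cluster 15. Of 16 identity and contractility genes 4 were higher and 2 at least 2-fold lower, with a median of -0.51, where wild type had 0.29. The 8 smooth muscle markers, those of the other mural type, summed to 286 and 1088 CPM in these nuclei (281 and 748 in wild type), and their part in the result was not tested.

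The potassium channel pair of pericytes, Abcc9 and Kcnj8, went from 3299 to 2000 and from 245 to 167 CPM, ratios of 0.606 (0.57 to 0.645) and 0.683 (0.547 to 0.852). Wild type had 1.23 and 2.12. Rgs5, a G protein regulator that marks pericytes, went from 1592 to 1129 CPM, a ratio of 0.709 (0.652 to 0.772) beside 1.12. Angpt1, the Tie2 ligand that steadies capillaries, had 24 and 9 UMIs, a ratio of 0.248 (0.102 to 0.554), where wild type had 2.5. Other identity genes were level or higher. Pdgfrb, the receptor that recruits pericytes, stood at 1295 and 1412 CPM, a ratio of 1.09 (1 to 1.19), Notch3 had 1.59 and the endothelin receptor Ednra 1.54. In wild type Notch3 had 2.53.

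Proliferation genes were higher in 14 of 14 measured and at least 2-fold in 13, with a median of 3.25 (2.17 in wild type). The wild type class held 213583 UMIs at homeostasis against 665392 in Q150X, so a gene at 0 there gives a smaller bound. Mki67, the Ki-67 antigen of cycling cells, had 6 and 156 UMIs, 9.02 and 155 CPM, a ratio of 17.2 (7.74 to 47.7). Diaph3, a formin, had a ratio of 13.5 and Top2a 12.9 (5.32 to 40.5). Thinned to 500 UMIs, 1.99% and then 18.8% of pericytes had any proliferation gene. In the same 3dpMI library 28.8% of neutrophil-like nuclei had one, so these shares were not read as shares of dividing pericytes. Tpx2, a spindle protein outside the list, had 0 and 66 UMIs and was at least 14.6-fold higher.

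**Figure D4:**
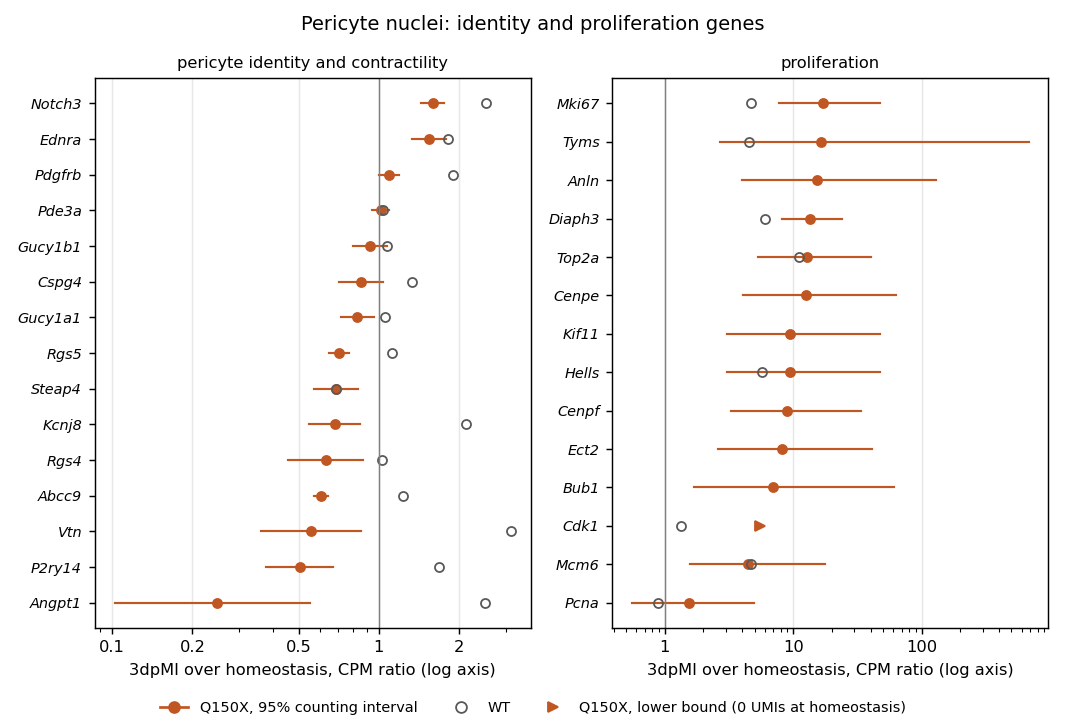
Ratio of CPM at 3dpMI over homeostasis (log axes) in pericyte nuclei for identity and contractility genes (left) and proliferation genes (right), filled points for Q150X with 95% counting intervals, open points for wild type and a triangle for a lower bound where homeostasis had 0 UMIs. Angpt1 (0.248) lies furthest left of the identity genes drawn, while 13 of the 14 proliferation genes lie right of 2.

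Matrix genes were also higher in pericytes, 27 of 30 in number and 19 at least 2-fold, with a median of 1.76 (1.53 in wild type). Col1a1 went from 33.1 to 516 CPM, a ratio of 15.6 (10.2 to 25.1), and Fn1 from 61.6 to 429 CPM, a ratio of 6.96 (5.05 to 9.84). Postn (periostin, a matrix protein of activated fibroblasts) had 3.14 (2.52 to 3.95), and the 12 fibroblast markers together 1317 and 2274 CPM, so the part of fibroblast RNA was not tested. The mechanosensitive channel Piezo2 went from 13.5 to 227 CPM, a ratio of 16.8 (8.69 to 37.2) beside 10.4, and Opcml, a cell adhesion gene, from 624 to 149 CPM, a ratio of 0.239 (0.197 to 0.289) beside 0.492. Of 19 hypoxia and glycolysis genes 16 were higher, with a median of 0.82 (0.27 in wild type). Hif1a, the oxygen-sensing factor, went from 70.6 to 172 CPM. The 12 immediate early genes measured were all higher, with a median of 1.16.

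In fibroblasts the activated and proliferation lists had larger medians than the lists given here for other resident classes. Of 12367 genes, 19.3% were at least 2-fold higher and 6.35% at least 2-fold lower, and the 14602 genes with 20 UMIs or more had a median of 0.28. The r against wild type was 0.828. Of the 2851 homeostasis nuclei, 1366 lay in cluster 1 and 1318 in cluster 3, and of the 1861 at 3dpMI, 1127 lay in cluster 5, so the class values compare largely different clusters. Of 16 activated fibroblast genes 15 were at least 2-fold higher, with a median log2 ratio of 5.01 (4.48 in wild type), and their summed level went from 475 to 10137 CPM.

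Postn went from 36.6 to 1780 CPM, a ratio of 48.6 (40.5 to 58.9) beside 24.4 in wild type, and Fn1 from 20.4 to 1281 CPM, a ratio of 62.9 (49.2 to 81.7) beside 30.5. Kif26b, a kinesin family gene, went from 9.55 to 2162 CPM, a ratio of 226 (159 to 336) beside 1017 in wild type. Cthrc1 had 0 and 1300 UMIs and Ccn4, a Wnt-induced matricellular gene, 0 and 1333, at least 136-fold and 140-fold higher. Cemip, a hyaluronan-degrading protein, had 1 and 1015 UMIs, a ratio of 319 (57.1 to 12602). Thinned to 500 UMIs, Postn was seen in 1.12% and then 41.4% of fibroblasts. At 3dpMI it was also seen in 24.6% of neutrophil-like, 8.07% of macrophage and 13.3% of B nuclei, and the part of free RNA in the lower of these shares was not tested.

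Resting fibroblast genes were lower in 12 of 14 measured, 8 at least 2-fold, with a median of -1.40 (-0.68 in wild type). Gsn (gelsolin, an actin-severing protein) went from 888 to 175 CPM, a ratio of 0.197 (0.185 to 0.209) beside 0.614, and Scara5, a ferritin receptor, from 438 to 68.6 CPM, a ratio of 0.156. Hsd11b1, which regenerates active glucocorticoid, had 0.146 and Pi16, which marks a fibroblast reserve, 0.351 (0.318 to 0.387). Lsamp, an adhesion gene, went from 960 to 94 CPM, a ratio of 0.0979 (0.0909 to 0.105). The collagen IV chains Col4a3 and Col4a4 were lower here too, from 326 to 11.2 and from 400 to 23.3 CPM.

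All 20 proliferation genes were at least 2-fold higher in fibroblasts, with a median of 4.30 (3.04 in wild type). Their summed level went from 71.3 to 1468 CPM, and in thinned nuclei the share with any of them from 2.77% to 29.5%, the latter close to the 28.8% of neutrophil-like nuclei, so the shares were not read as dividing cells. Of 31 matrix genes 23 were higher and 18 at least 2-fold, with a median of 1.61 (1.71 in wild type). Tnc (tenascin C, a wound matrix protein) went from 21 to 1452 UMIs, a ratio of 69.1 (54.3 to 89.4), while Eln (elastin) went from 518 to 94.4 CPM, a ratio of 0.182, and Dcn (decorin) had 0.514. Of 15 chemokines and cytokines 14 were at least 2-fold higher, with a median of 2.58. Cxcl5, which draws neutrophils, had 1 and 478 UMIs, a ratio of 150 (26.8 to 5941), and Il6 0 and 112, at least 11.7-fold higher. Ccl2, which draws monocytes, had 2.17 (1.56 to 3.11), where wild type had 5.93, and Cxcl1 5.99 (3.57 to 10.8), where wild type had 21.1.

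Within the fibroblast clusters that held both libraries the activated list was still higher and the resting list was near level. In clusters 1, 3 and 11 the activated medians were 1.14, 1.22 and 2.94 and the resting medians -0.07, -0.08 and 0.14.

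Macrophage and monocyte nuclei at 3dpMI had more recruited and repair transcripts and less of some resident and antigen-presenting ones. Of 10217 genes, 22.1% were at least 2-fold higher and 11% at least 2-fold lower, and the 12380 genes with 20 UMIs or more had a median of 0.18. The r against wild type was 0.576. By mean CPM 14.2% were higher and 13.3% lower. Cluster 16 held 398 of the 425 homeostasis nuclei and 14 of those at 3dpMI, where cluster 2 held 1472 and cluster 10 held 646. That split depends on the clustering, since at finer resolution the cluster led by Cd163 held 358 and 250 nuclei, and with at most 5% mitochondrial UMIs it held 329 and 457. Of 18 recruited and repair genes 17 were higher and 16 at least 2-fold, with a median of 3.88 (1.74 in wild type), and their sum went from 345 to 4987 CPM. The 2 medians are not capped alike, since the homeostasis class held 416953 UMIs in Q150X and 67877 in wild type. Spp1 and Gpnmb, at 0 UMIs at homeostasis in both, had bounds of 93 and 88.3 in Q150X and 7.15 and 8.03 in wild type.

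Spp1 had 0 and 4151 UMIs and Gpnmb 0 and 3944, which is at least 93-fold and 88.3-fold higher. Arg1, the arginase of repair macrophages, had 0 and 957 UMIs and was at least 21.4-fold higher. Ccr2, the receptor by which monocytes enter tissue, had 9 and 1533 UMIs, a ratio of 11.4 (6.01 to 25.1) beside 3.42 in wild type. Lgals3 (galectin 3) went from 33.6 to 551 CPM, a ratio of 16.4 (9.77 to 30.1), and Fn1 from 31.2 to 841 CPM, a ratio of 27 (15.8 to 50.7). Thbs1 (thrombospondin 1) had 1 and 2628 UMIs, a ratio of 177 (31.7 to 6977). Thinned to 500 UMIs, Gpnmb was seen in 18.5% of macrophages at 3dpMI. It was seen in 0 to 2.49% of cardiomyocyte, vascular endothelial, endocardial, pericyte and fibroblast nuclei and in 3.23% of lymphatic endothelial nuclei. Among other immune nuclei it was seen in 8.12% of neutrophil-like, 4.88% of T or NK, 4.08% of B and 3.66% of dendritic-like nuclei. Spp1 was seen in 22.6% of macrophages and also in 14% of vascular endothelial and 8.7% of fibroblast nuclei, so its level outside macrophages was not read as expression.

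Of 12 resident macrophage genes 4 were higher and 5 at least 2-fold lower, with a median of -0.54 (-0.38 in wild type). Lyve1, the hyaluronan receptor of perivascular macrophages, went from 252 to 19.3 CPM, a ratio of 0.0768, Timd4 had 0.103 (0.0489 to 0.226) and the scavenger receptor Cd163 0.367 (0.311 to 0.434). Mertk, which clears dead cells, had 1.91 and Igf1 2.09. MHC class II genes, which present antigen, were lower in 6 of 7, each at least 2-fold, with a median of -1.60. Cd74, the invariant chain, went from 297 to 87.5 CPM, a ratio of 0.294 (0.242 to 0.361), and their regulator Ciita from 79.1 to 30.6 CPM. The member that was higher was H2-DMa, at 2.31.

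Other macrophage lists were higher. Of 17 chemokines and cytokines 14 were higher and 12 at least 2-fold, with a median of 1.36. Under alternative settings that median ranged from 0.0 to 1.36. Ccl2 had 11 and 1785 UMIs, a ratio of 10.9 (6.08 to 21.9). Of 21 hypoxia and glycolysis genes 19 were higher and 14 at least 2-fold, with a median of 1.40 (1.15 in wild type), and Slc2a1 had 8.97 (3.48 to 33). All 20 proliferation genes were higher, with a median of 1.75, where wild type had 0.01. The wild type class held only 90 nuclei and 67877 UMIs at homeostasis, and a gene not detected there enters as a bound. Its share of thinned nuclei with a proliferation gene went from 11.1% to 23.3%, so its median was not read as an absent response. Mki67 went from 38.4 to 187 CPM in Q150X, a ratio of 4.86 (2.98 to 8.54) beside 1.21 in wild type. In thinned Q150X nuclei 8.71% and then 20.8% had a proliferation gene, at 3dpMI below the 28.8% of neutrophil-like nuclei. Interferon response genes had a median of 0.73 with 14 of 17 higher, and Irf7, an interferon regulator, had 4.6. Egfr and Pdgfd, growth factor signalling genes, went from 676 to 44.6 and from 381 to 25.9 CPM and were among the lowest.

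**Figure D5:**
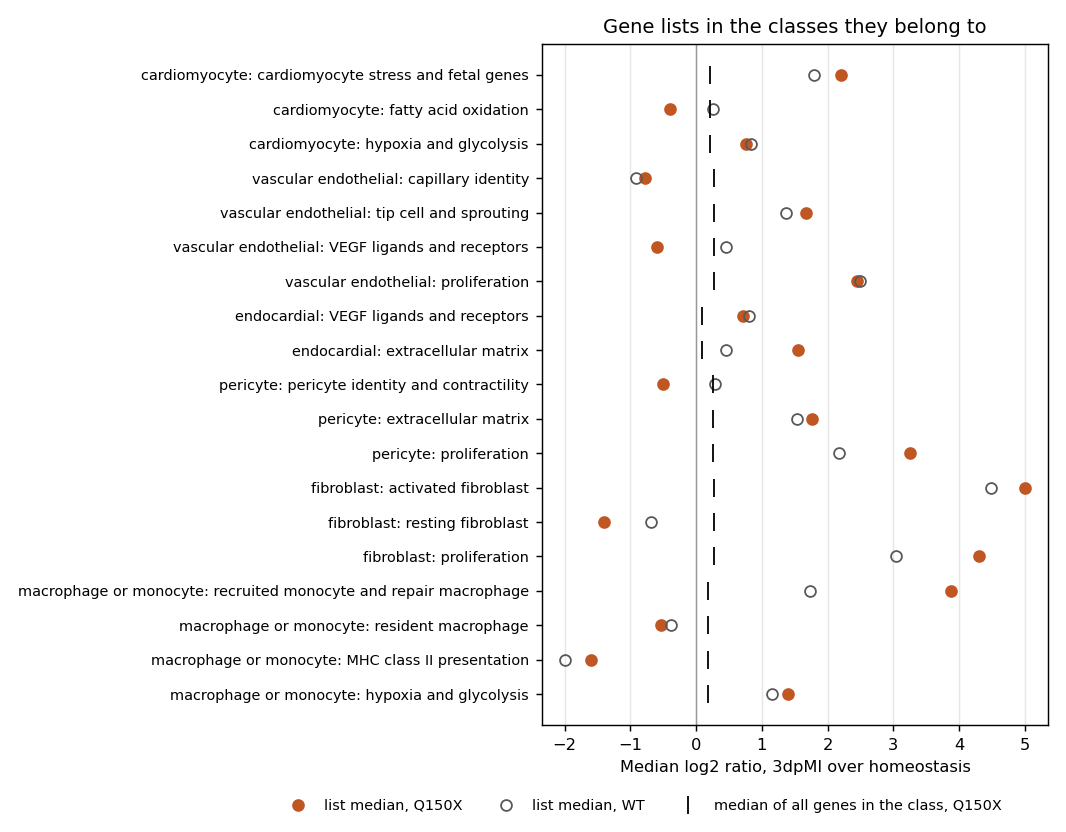
Median log2 ratio of 3dpMI over homeostasis for gene lists in the class each belongs to, filled for Q150X, open for wild type, with a tick for the median of all genes of the class in Q150X. The activated fibroblast list lies furthest right at 5.01 and MHC class II in macrophages furthest left at -1.60 among the Q150X points, and the fatty acid oxidation list in cardiomyocytes, the VEGF list in vascular endothelium and the pericyte identity list sit on the other side of 0 from wild type.

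Lymphoid nuclei were few, and most of their gene ratios had wide intervals. T or NK nuclei (cluster 21) numbered 18 and 82, and of their 16 markers 6 were at 0 at homeostasis. None of the 6 resting T cell genes measured was 2-fold higher or lower, and 4 were higher. Over the 3583 genes with 20 UMIs or more in these nuclei, 59.5% were higher. Il7r, the interleukin 7 receptor of naive and memory cells, was at 450 and 300 CPM, a ratio of 0.667 (0.361 to 1.35) beside 0.174 in wild type, and Satb1, a chromatin organiser of T cells, at 488 and 489 CPM. Skap1, a T cell adaptor, went from 1838 to 1244 CPM, a ratio of 0.677 (0.5 to 0.934), and Bcl11b, the T lineage factor, had 1.78 (0.791 to 4.96). The activation gene Cd44 had 1.58. The proliferation list summed to 1 of 26656 UMIs of the class at homeostasis and 235 of 259614 at 3dpMI. T or NK markers summed to 3939 and 2951 CPM in these nuclei, macrophage markers to 1013 and 2793, and fibroblast markers to 2401 and 3732. The part of that mixture in the T cell gene ratios was not tested.

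B nuclei (cluster 20) numbered 14 and 98. Pax5, the factor that fixes B cell identity, was at 578 and 551 CPM, a ratio of 0.952 (0.489 to 2.12), and Ighm (the IgM heavy chain) at 386 and 371 CPM. Bank1, a B cell adaptor, went from 2506 to 1198 CPM, a ratio of 0.478 (0.343 to 0.684), Cd79a, part of the B cell receptor, from 1028 to 180 CPM, a ratio of 0.175 (0.0985 to 0.329), and Cd74 from 3727 to 350 CPM, a ratio of 0.0939 (0.0673 to 0.132) beside 0.102 in wild type. Of 5 MHC class II genes 4 were at least 2-fold lower. Over the 3732 genes with 20 UMIs or more in these nuclei, 64.1% were higher. The share of all genes at least 2-fold lower was not computed for this class. At the same time macrophage markers in these nuclei went from 1414 to 3422 CPM and recruited macrophage genes from 321 to 2061 CPM, and the part of that mixture in the lower B cell genes was not tested. The B cell share ratio also turned with the depth minimum. With at least 1000 UMIs the class held 66 and 73 nuclei and the ratio was 0.507, and 66 homeostasis nuclei against 14 shows that the cluster so named then held other nuclei.

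Vegfa itself was lower in CPM after infarction, and by less when the class mix was held. Over all nuclei it went from 374 to 134 CPM, a ratio of 0.358 (0.341 to 0.375) beside 0.508 in wild type, and with the class mix held the log2 ratio was -0.34. Within cardiomyocytes it went from 925 to 702 CPM, a ratio of 0.759 (0.717 to 0.802) beside 0.834. In nuclei thinned to 500 UMIs, 35.3% and then 27.9% of cardiomyocytes had a Vegfa UMI, and unthinned 84.7% and 89.9%. Fibroblasts had a ratio of 1.17 (1.02 to 1.35), pericytes 0.707 (0.416 to 1.2) and endocardium 1.63 (0.651 to 4.63). Counts over the whole gene do not tell the edited transcript from an unedited one, so they do not check the allele.

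A few genes were higher in nearly every class regardless of its identity. Cmss1 went from 2651 to 21258 CPM over all nuclei, a ratio of 8.02, with class ratios between 2.73 and 10.8. Camk1d, a calmodulin-dependent kinase, had 6.59 and Cdk8, a Mediator kinase, 4.34 over all nuclei. Camk1d had a ratio of 0.498 in dendritic-like nuclei. In vascular endothelium Camk1d went from 372 to 3001 CPM, a ratio of 8.06 (7.03 to 9.29), where wild type had 31.4. These genes occupy part of the CPM of every class at 3dpMI. What moved them was not tested.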

How the data were processed

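Nuclei from mouse heart were profiled in 4 libraries, 1 per genotype and stage. The authors deposited raw UMI counts per gene and barcode, and per the file headers the software was Cell Ranger 7.1.0. GRCm39 and Scanpy are named, without a role, in the submitters' processing notes. The tables hold 33954 genes.

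Here nuclei were filtered by the stated rule and doublets were scored with Scrublet in Scanpy 1.11.5. The automatic threshold removed 9.88% of Q150X 3dpMI nuclei. In Q150X homeostasis it marked only 0.0154%, under the 0.5% needed to count as working, so the top scores were removed at 0.8% per 1000 nuclei (5.19%). The 4 libraries were clustered together (2000 variable genes, 30 components, 15 neighbours, Leiden resolution 1, seed 0) with no batch integration. Clusters were named from 17 marker lists, and the exact naming limits, such as a marker in at least 2% of nuclei, were settled after the clusters were seen. The 95% intervals are exact Poisson for levels, exact binomial for gene ratios and Clopper-Pearson for shares. Those of share ratios are a normal approximation on the log scale. List members with fewer than 20 UMIs in the 2 libraries together were set aside, and a library at 0 UMIs was set to a floor of 3 counts, which makes the ratio a bound. That bound is smaller where a class held fewer UMIs at homeostasis. Wild type held fewer in endocardium, lymphatic endothelium, pericytes, fibroblasts and macrophages, so list medians of the 2 genotypes are not capped alike there. Kept nuclei had a median of 968 and 2666 UMIs, so small classes at homeostasis are the least precise. The scripts were tested on simulated data.

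Named genes were, by ratio bound nearest to 1, the 8 highest and 8 lowest over all nuclei, 5 and 5 in classes with 100 or more nuclei in both libraries and 3 and 3 in classes with 20 to 99, at or above the level in other nuclei, plus the 2 highest and 2 lowest of each list. Genes without a symbol, mitochondrial, ribosomal, haemoglobin and sex-linked genes were left out. Other genes named from the lists were chosen after their values were seen. The members and lists were chosen with earlier results of these data known. Alternatives changed the nucleus filter, doublet removal, clustering, gene minimum, scaling and free RNA. Promoter sequences were read from a RefSeq table of GRCm38.p6, matched by symbol. Some genes that the rule or the lists hold are not reported here, and the pericyte plot leaves out 1 of them.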

Additional observations from a re-analysis of the deposited data

Results flagged for a closer look

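The genes named by rule and the list ends, picked by their Q150X ratios, gave 240 gene values in a class or over all nuclei. Of these, 13 moved in opposite directions in Q150X and wild type with both intervals clear of 1, and so did 1 class share. Values without finite intervals in both genotypes could not count as opposite. Genes outside the 240, such as Nrg1 in endocardium, were not counted. None of these differences was tested, since each genotype had 1 library per stage. The ratios below are 3dpMI over homeostasis.

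The pericyte share had a ratio of 0.403 in Q150X and 1.39 in wild type. In cardiomyocytes, the calcium pump gene Atp2a2 had 0.479 and 1.15, the potassium channel subunit gene Kcnip2 0.576 and 1.16, and the light chain gene Myl3 0.56 and 1.7. The cytochrome oxidase genes Cox8b and Cox7a1 had 0.461 and 1.97, and 0.533 and 2.06. In vascular endothelium, the muscle transcripts Mb, Myl3, Tnni3 and Ckm had 0.119, 0.13, 0.127 and 0.103 in Q150X and 2.47, 1.72, 1.77 and 2.91 in wild type. The estimate of cardiomyocyte RNA in these nuclei went from 11.8% to 1.68% in Q150X and from 4.17% to 7.14% in wild type, the same 2 directions. The matrix genes Eln and Dcn had 0.657 and 0.698 in Q150X and 2.18 and 3.52 in wild type. In pericytes, Myl3 had 0.121 and 8.09 and the mitochondrial ADP/ATP carrier gene Slc25a4 0.216 and 1.94, with a cardiomyocyte RNA estimate of 7.97% and 2.13% in Q150X and 3.73% and 5.49% in wild type. The part of that RNA in the single values was not tested.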

How the results depend on the processing

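No paired analysis was possible because each group is 1 library. Of the list medians under an alternative, 237 stayed within 1.5 times of the reported one and 16 moved further. Medians near 0 changed sign: interferon response in vascular endothelium ranged from -0.28 to 0.25 and the VEGF list in lymphatic endothelium from -0.01 to 0.40. Some larger medians varied in size. Proliferation ranged from 0.6 to 2.54 in vascular endothelium and from 0.72 to 1.75 in macrophages. Adhesion and venous genes in vascular endothelium ranged from 0.26 to 1.95. In macrophages the chemokine and cytokine list ranged from 0.0 to 1.36 and the recruited and repair list from 2.14 to 3.88. Among named genes 1128 values held, 130 moved by more than 1.5 times and 4 reversed, and the cause was not tested. Vegfa in vascular endothelium had a log2 ratio of 1.30 with free cardiomyocyte RNA subtracted. With at least 1000 UMIs a nucleus, Cenpf in vascular endothelium had -0.56 and Parp14 0.04, and with the Q150X libraries clustered alone Cxcl12 in macrophages had 0.02.

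Share ratios moved most. With at least 1000 UMIs they were 0.221 for cardiomyocytes, 6.19 for vascular endothelium, 0.842 for endocardium, 0.889 for lymphatic endothelium, 0.856 for pericytes, 0.516 for fibroblasts, 14.6 for macrophages, 80.7 for dendritic-like nuclei and 0.507, a reversal, for B cells. A marker gate in place of clusters gave 0.315 for cardiomyocytes, 1.0 for vascular endothelium, 0.306 for pericytes, 0.977 for fibroblasts, 27.3 for neutrophils, 0.986, a reversal, for dendritic cells, 2.1 for T or NK cells, 2.89 for B cells and 0.216 for Schwann cells. Without doublet removal fibroblasts had 0.477, macrophages 5.73 and B cells 11.2. In that setting no dendritic-like class was named, and the class named B held 24 and 336 nuclei. At most 5% mitochondrial UMIs gave fibroblasts 0.601 and macrophages 5.98. Finer clustering gave macrophages 4.81, and clustering Q150X alone gave fibroblasts 0.657 and macrophages 4.8.

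Centring on the median gene changed the calls over all nuclei to 16.3% higher and 14.1% lower, and in vascular endothelium to 7.25% lower. A minimum of 200 UMIs a gene left 11.6% of genes higher in vascular endothelium, 4.03% in endocardium and 5.53% in pericytes, and 7.03% lower in macrophages and 10.1% lower in lymphatic endothelium. A minimum of 20 gave 11.5% higher in endocardium, 16.2% in pericytes and 15.7% in lymphatic endothelium. A filter on mean CPM, added after seeing the data, gave 9.59% higher in vascular endothelium, 14.2% in macrophages and 5.81% in lymphatic endothelium. The gap in UMIs per nucleus (968 and 2666) limits comparisons of detection between the stages.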

Other observations

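Circadian clock genes stood lower in the injured Q150X library. Over all nuclei 3 of 14 measured clock genes were higher and 3 at least 2-fold lower, with a median log2 ratio of -0.40, beside 0.03 in wild type and 0.40 for all genes in Q150X. Npas2, a partner of the clock activator, went from 144 to 29.9 CPM, a ratio of 0.208 (0.19 to 0.227) beside 0.437 in wild type. Hlf, a clock output factor, went from 56.9 to 16.3 CPM, a ratio of 0.286 (0.25 to 0.326) beside 0.844, and Per2, a clock repressor, from 77.9 to 38.6 CPM, a ratio of 0.495 (0.448 to 0.547) beside 1.1. Arntl (BMAL1) was lower in both genotypes, at 0.771 (0.711 to 0.836) and 0.538. With the class mix held at homeostasis the log2 ratios of Npas2, Hlf and Per2 were -1.75, -1.32 and -0.65. The time of day at which hearts were taken was not given in the sources used here, and its part in these values was not tested.

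Glucocorticoid response genes were mixed. Over all nuclei 6 of 10 were higher, with a median of 0.24 beside 0.30 in wild type, where 68.1% of all genes in Q150X were higher. The metallothioneins Mt1 and Mt2 were among those at least 2-fold higher, and Klf9, Zbtb16 and Pdk4 were those at least 2-fold lower.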
